A study of Rattus norvegicus with 9 samples.

Results

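The probes described here were the replicate-spot mRNA probes of a rat m6A epitranscriptomic microarray, apart from those of 9 named genes. The array carried 50 probes with 10 spots each and names that begin with A_4, most of them with a transcript accession, and 9 of these stood for Map2, Dlg4, Cdh2, Ppp2r2b, Fgf2, Ldha, Eif4b, Magoh and Mex3c. The other 41 probes are the members, out of 41186 probes for transcripts on the array. Through its accession, a rat gene symbol of assembly GRCr8 (RefSeq) could be given to 21 members (20 protein-coding genes and the long noncoding LOC108352165), and 20 members had no symbol and are named by probe. With 10 spots each on every array, these probes gave a measured error between the spots of an array, and of no earlier step, beside the spread between rats.

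Cortex of the ischemic side was taken from 9 young adult male Sprague Dawley rats, with 1 array per rat. The 3 rats of the control group had the neck surgery without the plug line, the 3 rats of the model group had cerebral ischemia-reperfusion by transient occlusion of the middle cerebral artery, and the 3 rats of the BHD group had the same operation followed by Buyang Huanwu Decoction (BHD), a herbal formula. Intervention lasted 7 days, and the dose and route of BHD are not given in the sources used here. Day 7 was recorded for the model and BHD rats alike, and no day for the control rats. The model was a unilateral arterial occlusion, and whole cortical tissue was measured, so fewer cells of a type and less RNA per cell cannot be told apart.

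N6-methyladenosine (m6A) is a methyl mark on adenosines inside RNA, written by a methyltransferase complex, removed by demethylases and bound by reader proteins that act on RNA stability and translation. It is abundant in brain transcripts. On these arrays, RNA pulled down by an anti-m6A antibody (IP) was labelled with Cy5 and the RNA left in the supernatant (Sup) of the same rat with Cy3. The relative m6A level of a probe is log2(IP/Sup), and the IP and Sup signals are given on the log2 scale. Without a dye swap, a probe's own dye effect stays in its ratio, and after loess normalization a ratio of 0 is the level of a typical probe of that brightness. Levels of different probes were therefore not set against each other, and the order of ratios below is a description.

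Before normalization, model replicate 2 stood apart, with a median log2(IP/Sup) over all probes of −1.07 against 0.05 to 0.43 on the other 8 arrays. Spots marked as outliers by the scanner were left out, which kept 352 to 389 of the members' 410 spots per array, and no spot was saturated. Shared scans put the 3 control arrays with model replicate 1 on slide 1, model replicates 2 and 3 with BHD replicates 1 and 2 on slide 2, and BHD replicate 3 on slide 3. Of 29 marker genes of neurons, glia and endothelium, 2 could be matched to a probe through an accession, the neuronal Map2 and Dlg4, and these passed the background limit in IP and Sup on all 9 arrays. The other markers were not checked, since most probes of the array could not be matched to a gene here, and the labelled tissue was not checked beyond that.

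A probe was well above background on an array where at least 5 of its 10 spots were. Of the 41 members, 26 were so in IP and Sup alike on every array, 12 on some, and 3 in no channel of any array. The latter were Lhcgr, the receptor of luteinizing hormone, and a pair of probes without a gene name. Gdnf, a neurotrophic factor, was well above background only in the IP channel of model replicate 3. Cyp2e1, an ethanol-oxidizing cytochrome P450, was so on 4 arrays in IP and 3 in Sup, none of them a control array. Its mean signals were nonetheless alike, at 6.07, 6.09 and 6.08 in IP and 6.15, 6.13 and 6.14 in Sup in control, model and BHD rats. The IP signal of Nlrp3, the sensor protein of an inflammasome, was 6.10, 6.10 and 6.05 in the control rats, 6.27, 6.10 and 6.38 in the model rats, and 6.25, 6.23 and 6.94 in the BHD rats. It was well above background in 0 of 3 control, 2 of 3 model and 3 of 3 BHD arrays, and in Sup in BHD replicate 3 alone. These dim levels are bounds, and no fold is given for them. The share well above background over the whole array also differed between arrays. In IP it was 70.9% to 77.0% on control, 75.4% to 82.7% on model and 73.9% to 80.6% on BHD arrays. In Sup it was 58.4% to 68.2%, 64.9% to 71.5% and 67.9% to 72.7%, so counts of arrays passing are not levels of RNA.

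The members' mean log2(IP/Sup) in the control group ran from about −1.86 to 3.14, so the set held probes far on either side of 0. Among the 35 members tested between model and control, 5 had a control ratio above 1 and 6 a ratio below −1. Over all tested probes these shares were 8.30% and 8.06%. The highest control ratio was that of the unnamed probe A_43_P13908, with values of 2.88, 3.42 and 3.13 in control, 3.35, 2.45 and 2.75 in model and 2.94, 2.97 and 2.90 in BHD rats. Its 3 groups overlapped.

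Trim2, a ubiquitin ligase of neurons, came next among members bright on all control arrays, with ratios of 1.94, 2.31 and 2.23 in control, 2.52, 2.06 and 1.71 in model and 1.85, 1.59 and 1.77 in BHD rats. Its IP signal lay at 11.04 to 11.83 over all 9 rats, so it was bright in IP in every rat, whereas its Sup signal was 8.81 to 9.58 in control, 8.99 to 9.59 in model and 9.68 to 10.003 in BHD rats. The Sup signals of the model and BHD rats did not overlap, with a difference of 0.51 (SE 0.23, limma unadjusted p = 0.053, adjusted p = 0.636), and Trim2 was not called. Odf2l, a protein of centrioles and related to a component of sperm tails, had ratios of 1.34, 1.14 and 1.38 in control, 1.27, 0.41 and 0.76 in model and 1.38, 1.16 and 1.04 in BHD rats. Model replicates 2 and 3 were the lowest of its 9 rats.

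The lowest control ratios belonged to probes without a gene name. A_44_P118342 read −1.65, −1.88 and −2.05 in control, −2.26, −1.34 and −1.89 in model and −1.96, −1.85 and −1.89 in BHD rats. A_44_P441947 read −1.39, −1.75 and −2.06 in control, −1.78, −1.72 and −1.93 in model and −1.33, −1.76 and −1.37 in BHD rats. Both had all 3 groups overlapping. A_44_P913360 read −1.92, −1.87 and −1.73 in control, −1.94, −1.43 and −1.60 in model and −2.02, −2.08 and −1.90 in BHD rats, where model and BHD rats overlapped only through model replicate 1.

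**Figure D1:**
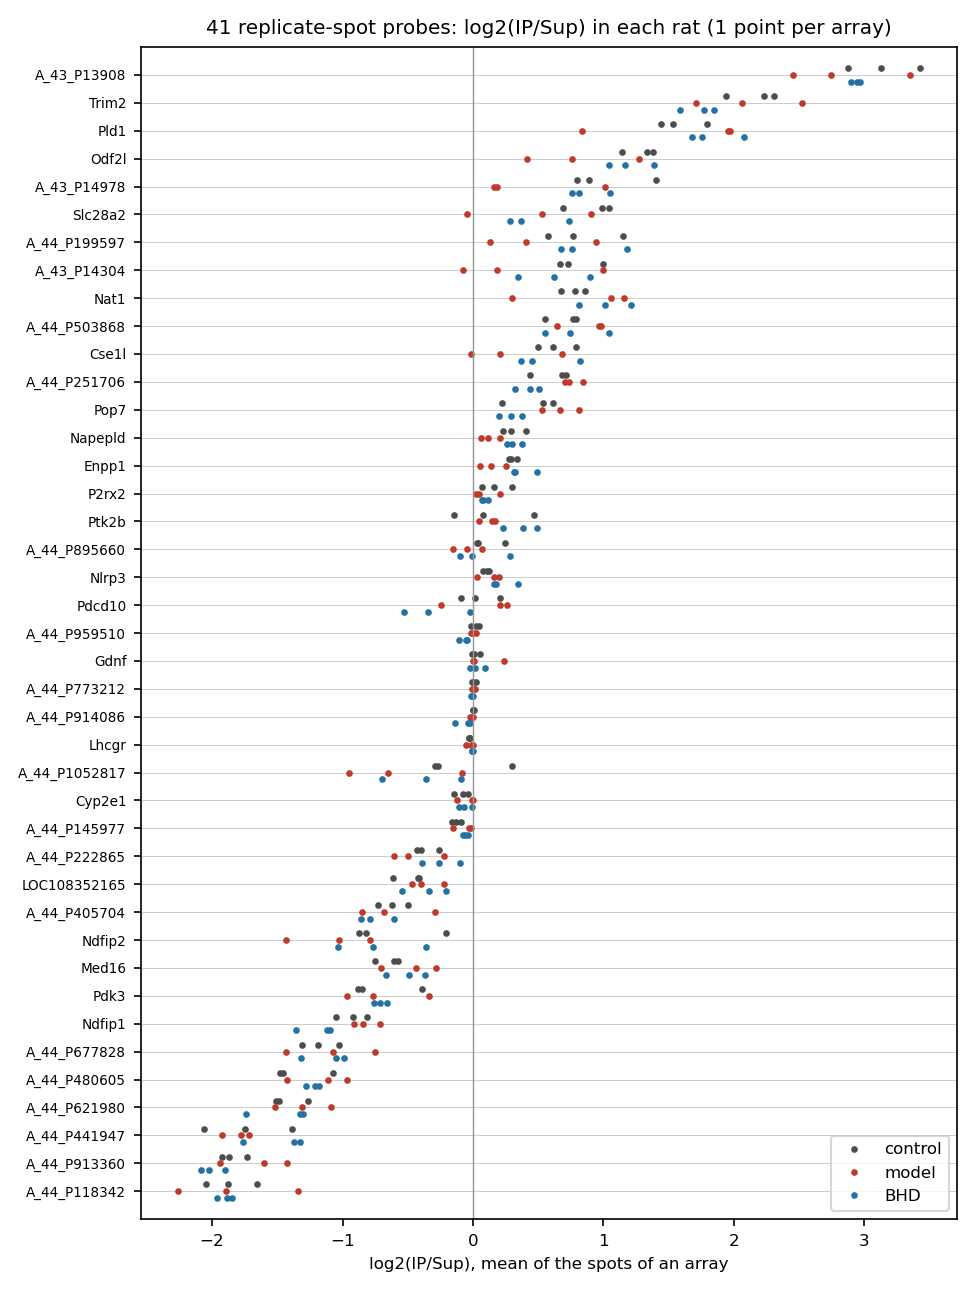
Log2(IP/Sup) on the horizontal axis for each of the 41 members, ordered by the mean of the control group, with 1 point per array in control (grey), model (red) and BHD (blue) rats. The points of a member's 3 groups overlap for most members, and Lhcgr, which was not well above background on any array, sits at about 0.

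In log2(IP/Sup), the spots of a probe agreed closely within an array. Over the 41 members the median SD of log2(IP/Sup) between the spots of an array was 0.0792, from 0.0518 to 0.138 by member. By array the median ran from 0.0555 in model replicate 1 to 0.0970 in BHD replicate 3. The SD between rats of a group, pooled over the 3 groups, had a median of 0.195. In the 26 members bright on all arrays it was 0.236 against a spot SD of 0.0797, and the rat SD was the larger in 26 of 26. There the variance of the mean of the spots made up a median of 1.99% of the variance between rats (0.589% to 4.93%). That share is one of log2(IP/Sup) and not of IP or Sup, where spots can spread more. The Slc28a2 spots of control replicate 1 ran from 7.89 to 8.40 in IP and from 0.89 to 1.19 in the ratio. With 1 array per rat, differences between rats and between their arrays cannot be told apart. The spot SD was largest for A_43_P13908 (0.138) and next for Nat1, an arylamine acetyltransferase (0.129), whose ratios were 0.67, 0.86 and 0.78 in control, 1.16, 0.30 and 1.06 in model and 1.01, 0.81 and 1.21 in BHD rats. The Sup signal of Nat1 was not well above background in any control rat, so its control ratios are bounds. The smallest spot SDs, 0.0518 and 0.0592, belonged to probes without a gene name, of which one was not above background anywhere.

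**Figure D2:**
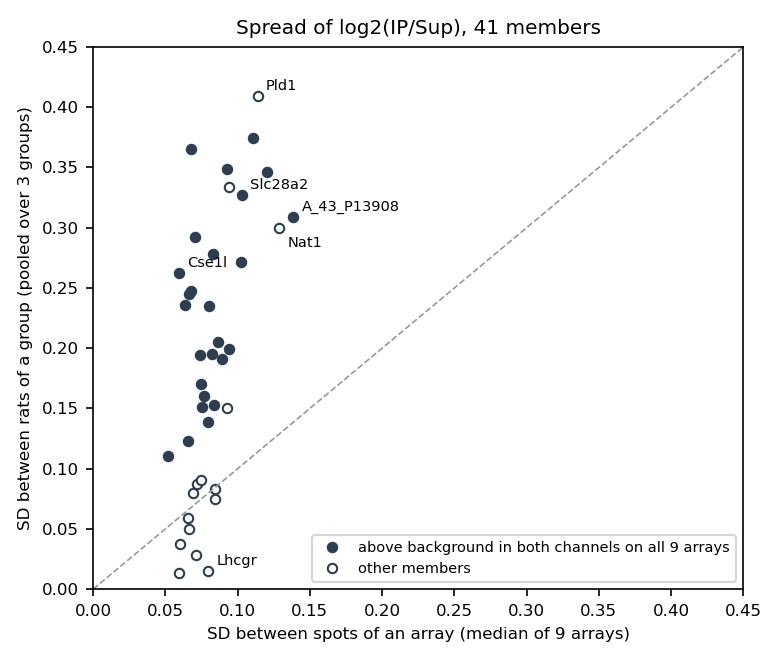
SD of log2(IP/Sup) between the spots of an array (horizontal, median of 9 arrays) against the SD between rats of a group (vertical, pooled over 3 groups), 1 point per member, with the line of equality dashed. The 26 members bright on every array (filled) all lie above the line, and members below it are dim ones (open), such as Lhcgr.

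For the comparison of model with control rats, 35 members were tested, and a probe was called where limma gave a change of 1.5-fold or more together with an unadjusted p below 0.05. In log2(IP/Sup) 0 members were called, against 0.613% of the 31640 probes tested, and 0 had an unadjusted p under 0.05 (3.76% of all). In IP 0 were called (1.39% of all probes) and 5 had an unadjusted p under 0.05 (6.29% of all). In Sup 1 member was called, Slc28a2 (1.24% of all), and 3 had an unadjusted p under 0.05 (7.07%). The median change of the members was −0.01 in the ratio, −0.03 in IP and 0.03 in Sup, beside medians over all probes of 0.01, −0.01 and −0.01. After Benjamini-Hochberg adjustment over all probes tested, 0 members passed 0.05 in limma, and the smallest adjusted values were 0.766, 0.72 and 0.701.

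For BHD against model rats, 37 members were tested. In log2(IP/Sup) 0 were called (2.63% of 32819 probes) and 6 had an unadjusted p under 0.05 (10.9%). In IP 1 was called, again Slc28a2 (5.25%), and 9 had an unadjusted p under 0.05 (16.6%). In Sup 1 was called, Slc28a2 once more (2.91%), and it was also the one member with an unadjusted p under 0.05 (7.92%). The smallest adjusted p of a member was 0.431, 0.248 and 0.598 in limma. With 3 rats against 3, an exact permutation test of a single probe cannot give a two-sided p below 0.1.

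More members leaned upward than downward in the BHD rats in both channels. In IP 28 of 37 were above 0, with a median of 0.14, where 46.9% of all probes were above 0 and their median was −0.01. In Sup it was 31 of 37 and 0.13, beside 44.6% and −0.02. With loess only, where the median over all probes moved to −0.25 in IP and −0.24 in Sup, 18 of 37 members were above 0 in IP and 17 of 37 in Sup, with medians of −0.03 and −0.04, which were 0.22 and 0.20 above those of all probes. With the slide as a block 23 and 22 were above 0. Without BHD replicate 3, which was alone on slide 3, 24 of 37 were above 0 in each channel. The medians then lay 0.07 in IP and 0.08 in Sup above those of all probes, against 0.15 in each with all arrays. Among the 26 members bright on all arrays, 21 in IP and 22 in Sup were above 0. The BHD rats lay wholly above the model rats in IP for 11 members and wholly below for 1 (10% and 15.4% of all probes). In Sup these counts were 4 and 2 (5.55% and 9.03%). The ratio did not lean in this way, with 20 of 37 above 0 and a median of 0.00.

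**Figure D3:**
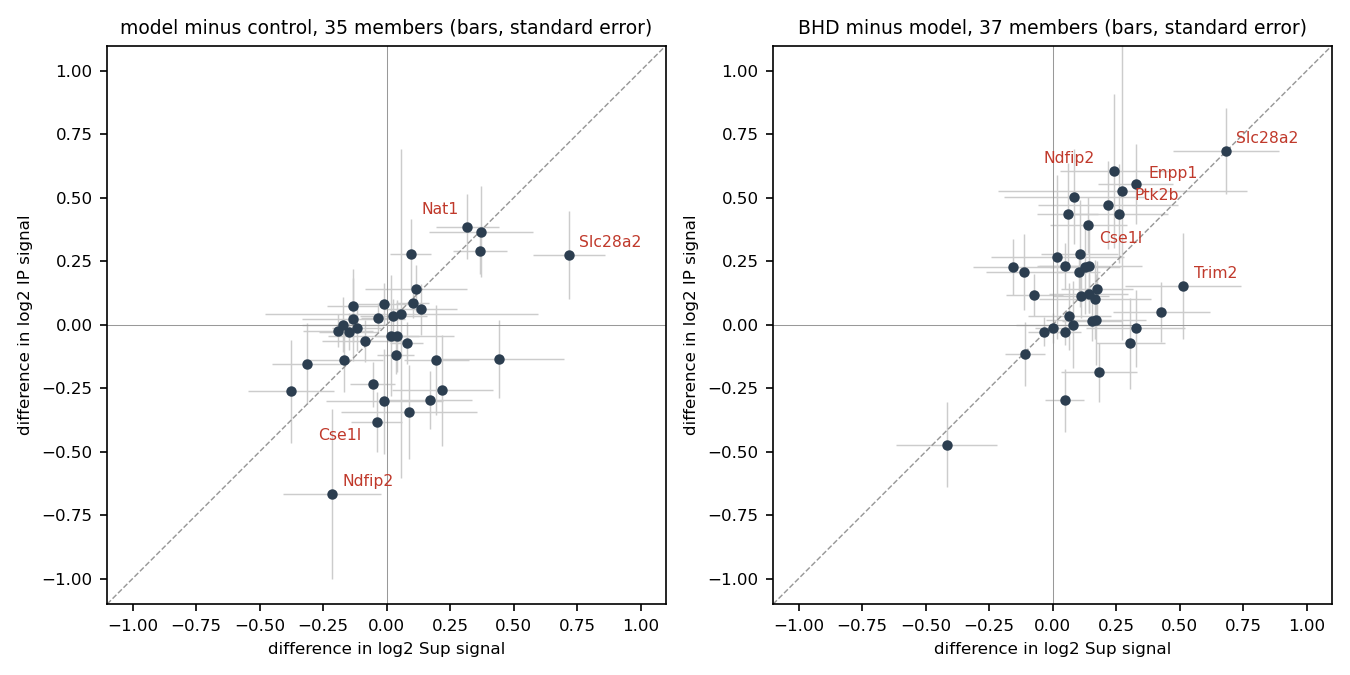
Difference in log2 Sup signal (horizontal) against difference in log2 IP signal (vertical) for the members tested, model minus control (left, 35) and BHD minus model (right, 37), with standard errors as bars and equal change dashed. Slc28a2 lies farthest to the right in both panels, and most members lie above 0 on both axes in the right one. With loess only, 18 of 37 members lay above 0 in IP and 17 of 37 in Sup there.

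Slc28a2, the only member called, encodes a sodium-coupled nucleoside transporter that prefers purines. Its Sup signal was 7.10, 7.13 and 7.30 in the control rats, 7.61, 7.97 and 8.10 in the model rats and 8.81, 8.09 and 8.82 in the BHD rats. All model rats lay above all control rats, and BHD replicates 1 and 3 lay above all model rats, while BHD replicate 2 fell just below model replicate 3. Its spots stayed close together, with a Sup spot SD of 0.043 to 0.16 by array.

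Its IP signal was 8.14, 7.82 and 8.29 in control, 8.51, 8.50 and 8.06 in model and 9.10, 8.83 and 9.19 in BHD rats. Control and model rats overlapped in IP, and all BHD rats lay above both. Its log2(IP/Sup) was 1.04, 0.69 and 0.99 in control, 0.90, 0.53 and −0.04 in model and 0.28, 0.74 and 0.37 in BHD rats. Model replicate 3 was the lowest of the 9, and every pair of groups overlapped.

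The Sup signal of Slc28a2 rose by 0.72 from control to model rats (SE 0.14, fold change 1.64, limma unadjusted p = 0.00187, adjusted p = 0.701). From model to BHD rats it rose by a further 0.68 (SE 0.21, fold change 1.60, limma unadjusted p = 0.0108, adjusted p = 0.598). IP rose by 0.68 between the same groups (SE 0.17, fold change 1.61, limma unadjusted p = 0.00386, adjusted p = 0.248), and model minus control in IP was 0.27 (SE 0.17, limma adjusted p = 0.865). The ratio differed by −0.44 (SE 0.24, limma adjusted p = 0.766) and by 0.00 (SE 0.23, limma adjusted p = 0.999), neither called. With the scanner software's processed signals, model minus control was 1.12 in Sup and −0.72 in the ratio, and both were called.

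Each of these calls passed on the unadjusted p alone. Within slides, the rise in Sup was 0.43 for model replicate 1 against the control rats and 0.42 for BHD replicates 1 and 2 against model replicates 2 and 3, neither called, whereas IP within slide 2 was 0.69 and stayed called. The call in Sup for BHD was lost without model replicate 1 (0.54), BHD replicate 1 (0.56) or BHD replicate 3 (0.56), and the call in IP without model replicate 3 (0.53).

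**Figure D4:**
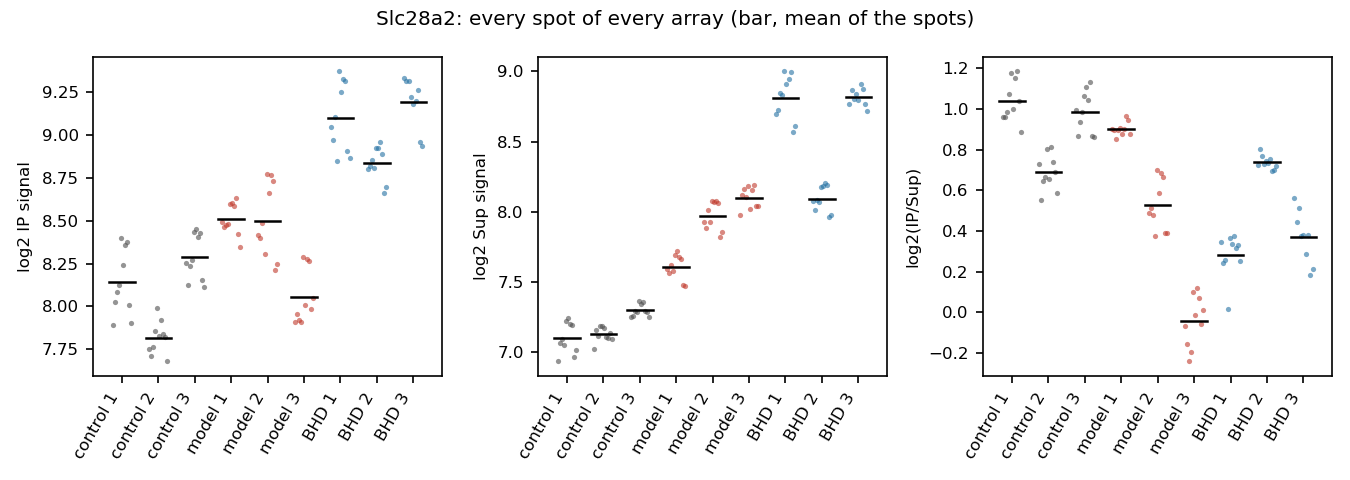
Log2 IP signal (left), log2 Sup signal (middle) and log2(IP/Sup) (right) of every Slc28a2 spot kept on each array, with the mean of the spots as a bar. The Sup signal stood at 7.10 to 7.30 in control, 7.61 to 8.10 in model and 8.09 to 8.82 in BHD rats. In log2(IP/Sup) the spots of an array span less than the rats of a group. In the single channels this does not always hold. The spots of control replicate 1 run from 7.89 to 8.40 in IP and from 6.93 to 7.24 in Sup, where the control rats range over 0.469 and 0.199.

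Signalling and receptors took in 9 named members, and 0 of those tested were called in any of the 6 tests. Over all probes 0.613% to 5.25% were called by test, and shares this low leave few calls to be looked for in so small a set. Ptk2b, a calcium-activated tyrosine kinase of neurons, had the widest range between rats of a group in IP and in Sup. Its IP signal was 9.73, 9.90 and 7.43 in control, 9.01, 9.14 and 9.05 in model and 9.996, 9.52 and 9.26 in BHD rats. The Sup signal was 9.26, 9.83 and 7.58 in control, 8.96, 8.97 and 8.90 in model and 9.62, 9.03 and 9.02 in BHD rats. Control replicate 3 lay more than 1 below every other rat in both channels, a control range of 2.47 in IP and 2.25 in Sup, and its spots lay together (spot SD 0.10 in IP and 0.056 in Sup).

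The log2(IP/Sup) of Ptk2b ranged less, from −0.15 to 0.47 in control, 0.05 to 0.17 in model and 0.23 to 0.49 in BHD rats. Model minus control was 0.04 in IP (SE 0.65) and 0.06 in Sup (SE 0.54). Without control replicate 3 these values became −0.75 (limma unadjusted p = 0.000303, adjusted p = 0.142) and −0.60 (limma unadjusted p = 0.0153, adjusted p = 0.327), both then called, so that 1 rat decided the direction. The control median range of a member was 0.246 in IP, and over 1 in 2 members.

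**Figure D5:**
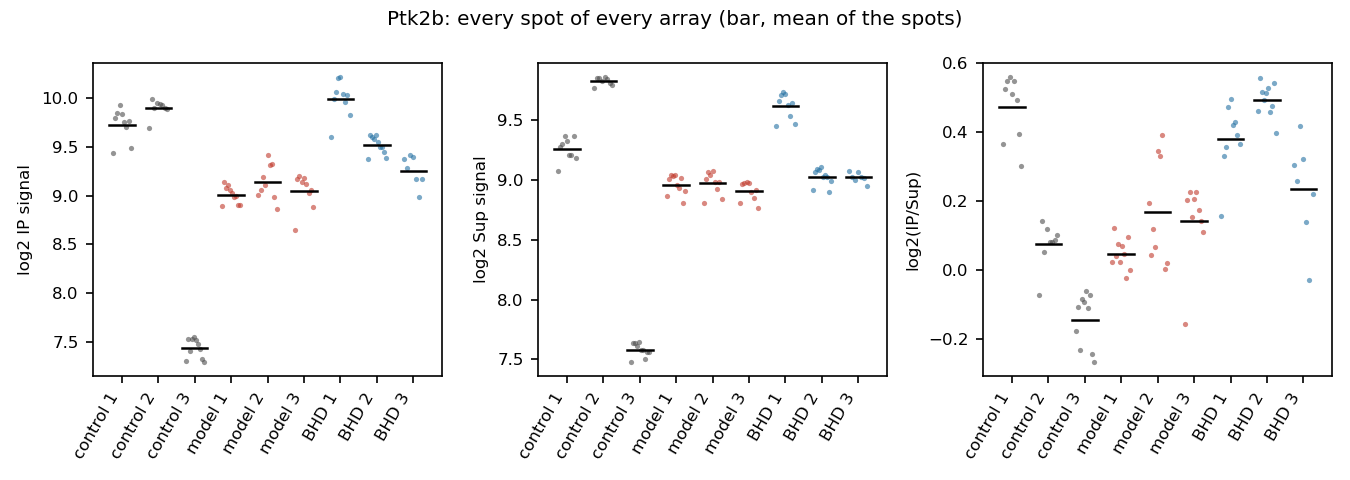
Log2 IP signal (left), log2 Sup signal (middle) and log2(IP/Sup) (right) of every Ptk2b spot kept on each array, with the mean of the spots as a bar. Control replicate 3 lies at 7.43 in IP and 7.58 in Sup with all its spots, apart from the other 8 arrays.

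Ndfip2 and Ndfip1 are membrane adaptors that recruit Nedd4-family ubiquitin ligases. The IP signal of Ndfip2 was 10.16, 9.71 and 8.90 in control, 9.22, 8.94 and 8.61 in model and 9.69, 9.59 and 9.31 in BHD rats. Control replicate 3 again was the low control rat and overlapped the model rats, and the BHD rats lay above all model rats. Model minus control was −0.67 (SE 0.33, limma unadjusted p = 0.093, adjusted p = 0.833), and BHD minus model 0.61 (SE 0.30, limma unadjusted p = 0.082, adjusted p = 0.352), neither called. With the replicate number as a block in limma both were called (adjusted p = 0.345 and adjusted p = 0.159). Without control replicate 3 model minus control was −1.01. Both contrasts use the same model rats.

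Ndfip1 had ratios of −1.05, −0.92 and −0.81 in control, −0.84, −0.71 and −0.91 in model and −1.098, −1.35 and −1.12 in BHD rats. The BHD rats lay below all model rats, a difference of −0.37 (SE 0.10, limma unadjusted p = 0.00615, adjusted p = 0.431), under the 1.5-fold threshold.

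Among the other signalling members, Pld1 had a ratio range of 1.13 in the model group, the widest of all 41 members. Pdcd10, a gene of the cerebral cavernous malformation complex, had Sup signals of 9.51, 9.27 and 9.04 in control, 8.97, 8.998 and 9.35 in model and 9.15, 9.74 and 9.70 in BHD rats, where BHD minus model was 0.43 (SE 0.19, limma adjusted p = 0.637). Pld1, which makes the lipid second messenger phosphatidic acid, had ratios of 1.53, 1.44 and 1.80 in control, 1.96, 0.83 and 1.97 in model and 1.67, 1.75 and 2.08 in BHD rats, with model replicate 2 apart from the rest. P2rx2, an ATP-gated channel, kept ratios of 0.02 to 0.30 over all 9 rats at a dim IP signal of 6.09 to 6.54, and its Sup was well above background on 2 arrays.

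In metabolism and transport, 6 named members were measured, Slc28a2 among them. Enpp1, a membrane enzyme that cleaves nucleotides into pyrophosphate, had IP signals of 6.70, 6.60 and 6.56 in control, 6.54, 6.41 and 6.56 in model and 6.66, 7.20 and 7.30 in BHD rats. All BHD rats lay above all model rats, though BHD replicate 1 only slightly and within the control rats. The difference of 0.55 (SE 0.16, limma unadjusted p = 0.00752, adjusted p = 0.248) was just under the fold threshold, and without BHD replicate 1 it was 0.75 and called. With processed signals it was 1.28 and called, and the lowest value over the settings that left out no single array was 0.27.

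The ratio of Enpp1 was 0.34, 0.27 and 0.29 in control, 0.25, 0.05 and 0.14 in model and 0.32, 0.49 and 0.32 in BHD rats, the model rats being below all others. BHD minus model was 0.23 (SE 0.082, limma adjusted p = 0.431). Its Sup signal was well above background on 7 of the 9 arrays.

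Napepld, the phospholipase D that releases N-acylethanolamines such as anandamide, had IP signals of 6.68, 6.67 and 6.86 in control, 6.51, 6.59 and 6.40 in model and 6.61, 6.73 and 6.85 in BHD rats. The model rats were the 3 lowest of the 9. Model minus control was −0.23 (SE 0.087, limma adjusted p = 0.772), and BHD minus model 0.23 (SE 0.091, limma adjusted p = 0.276), both at an unadjusted p under 0.05 and below the fold threshold. With processed signals these were −0.61 and 0.61, and both were called. Over the settings that left out no single array, model minus control shrank to as little as −0.036. BHD minus model turned to −0.028 with loess only. Its Sup signal was well above background on 8 of the 9 arrays. Both contrasts use the same model rats.

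The IP signal of Nat1 was 6.95, 7.13 and 7.03 in control, 7.57, 7.16 and 7.55 in model and 7.55, 7.38 and 8.19 in BHD rats. The control rats lay below all the others, though model replicate 2 was close to control replicate 2, and model minus control was 0.39 (SE 0.13, limma unadjusted p = 0.0235, adjusted p = 0.754). With processed signals it was 0.69 and called. In Sup, which was not well above background in any control rat, model minus control was 0.32 (SE 0.13, limma unadjusted p = 0.0421, adjusted p = 0.702). The Sup values of control and model rats did not overlap, and the difference was not called. With processed signals the Sup difference was 0.93 and called. Pdk3, a kinase that inhibits pyruvate dehydrogenase, had ratios of −0.39, −0.85 and −0.88 in control, −0.77, −0.34 and −0.96 in model and −0.66, −0.71 and −0.76 in BHD rats, where the groups overlapped.

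The 4 members of RNA, protein and nuclear handling were Trim2, Cse1l, Pop7 and Med16, and 0 were called (0.613% to 5.25% of all probes by test). Cse1l, which exports importin alpha from the nucleus, had IP signals of 9.90, 9.81 and 9.70 in control, 9.62, 9.42 and 9.22 in model and 9.77, 9.76 and 9.92 in BHD rats. The model rats were the 3 lowest of the 9. Model minus control was −0.38 (SE 0.12, limma unadjusted p = 0.0174, adjusted p = 0.72), and BHD minus model 0.39 (SE 0.11, limma unadjusted p = 0.00713, adjusted p = 0.248), both under the fold threshold. Both contrasts use the same model rats. Over all probes in IP, the model rats lay wholly below the control rats for 6.69%. The BHD rats lay wholly above the model rats for 10%.

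The Sup signal of Cse1l showed no such separation, with 9.11, 9.19 and 9.20 in control, 8.94, 9.21 and 9.24 in model and 8.95, 9.31 and 9.55 in BHD rats. Pop7, a protein subunit of RNase P and RNase MRP, had ratios of 0.23, 0.61 and 0.53 in control, 0.53, 0.81 and 0.66 in model and 0.29, 0.20 and 0.38 in BHD rats. The BHD rats lay below all model rats, a difference of −0.38 (SE 0.12, limma unadjusted p = 0.0117, adjusted p = 0.431). Med16, a Mediator subunit, ranged from −0.75 to −0.28 over all 9 rats.

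Of the remaining named pair, the IP signal of Odf2l was 8.05, 7.78 and 8.12 in control, 7.81, 7.60 and 7.65 in model and 8.01, 7.78 and 7.95 in BHD rats. Control and model rats overlapped through control replicate 2, and model minus control was −0.30 (SE 0.11, limma unadjusted p = 0.0386, adjusted p = 0.777). LOC108352165 had ratios of −0.61 to −0.20 over all 9 rats, with no separation of the groups. Of the 20 members without a gene name, 18 were tested in each comparison and 0 were called in any of the 6 tests. By test, 0.613% to 5.25% of all probes were called, so few calls were to be looked for among 18. Their model minus control ratio ran from −0.58 to 0.18 and their BHD minus model ratio from −0.35 to 0.42.

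The choice of model rats moved the ratio calls. Model replicate 1 shared its slide with the control rats. Without it, 6 members were called lower in log2(IP/Sup) in model than in control rats (5.51% of all probes in that setting), among them Odf2l at −0.70, Slc28a2 at −0.66 and Ndfip2 at −0.60, with the smallest limma adjusted p among them at 0.215. With the slide as a block, 4 members were called higher in BHD than in model rats (7.63% of all), Odf2l at 0.69 and 3 without a gene name. Without model replicate 2, the counts in the ratio were 0 in both comparisons. Without model replicate 1, the control rats were all on slide 1 and the model rats all on slide 2. Slide and group cannot be told apart between them in that setting. Elsewhere slide and group were in part the same arrays, and their part in these counts was not tested.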

How the data were processed

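The authors labelled IP RNA with Cy5 and Sup RNA with Cy3 and deposited, per array, the spot file that Agilent Feature Extraction (11.0.1.1) wrote. Its intensity values, as deposited, are medians of each spot and its local background without normalization, beside processed ones from which that software took background and dye effects. Their table of normalized log2 signals (32860 rows, 18 columns) held 0 members and was not used here. Genome build and annotation of the array design are not given in the sources used here.

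Samples were grouped by their titles. The members and lists were chosen with earlier results of these data known. Values of every array were given by rule for members called, for the 3 highest and 3 lowest control ratios among members bright on the control arrays and for the extremes of the spot SD, with at most 4 unnamed probes in full. Roles were assigned from gene descriptions. Named genes with an unadjusted p under 0.05, and Ptk2b and Ndfip2, were described after their values were seen.

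Median intensities were corrected with normexp (offset 50), which compresses dim signals, and control and outlier spots were removed. Loess (span 0.3) was run within arrays, and for IP and Sup the Aquantile step followed on single spots. The spots of a probe were then averaged (R 4.3.3 with limma 3.58.1). Files were read by the data.table package, version 1.17.8. Figures were drawn with matplotlib 3.10.9, and pandas 2.3.3 was used under Python 3.11.15. Tested probes were well above background in 1 channel or more on at least 3 of the 6 arrays compared with at least 2 values per group. The limma fit of model against control used 6 arrays, that of BHD against model 9, without a block. In simulated data with 200 probes changed by 2 on the log2 scale, the log2(IP/Sup) fit of model against control (31640 probes) called 199 of them and 0.747% of the unchanged. No member changed by that much, the largest change tested being 0.72, so this does not show how often changes of the sizes seen here would be called. No source says whether rats shared a litter or batch, and p-values measure the spread between the arrays of each fit, whose number limits the precision.

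Marker lists of 29 genes (7 neuronal, 6 each astrocytic, microglial and oligodendrocytic, 4 endothelial) could be matched through an accession for 2 genes, both neuronal, and the check on them was void. The array may hold the others under probes not matched here. Pairing was checked by correlating deviations from group means over all probes tested. For log2(IP/Sup), same-numbered control and model arrays gave r of 0.437, 0.139 and 0.325, each above 0.1. For model and BHD arrays they gave 0.599, 0.0356 and 0.253, below 0.1 in 1 pair. Differently numbered arrays gave −0.465 to 0.376 for control and model and −0.469 to 0.354 for model and BHD, so some exceeded same-numbered ones. Neither labels nor paper say what a number shares. Alternatives covered normalization, background correction, filters, spots, p-value, arrays in the fit, slide and replicate blocks and each array left out.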

Additional observations from a re-analysis of the deposited data

How the results depend on the processing

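Counts of members called stood at 0, 0 and 1 for log2(IP/Sup), IP and Sup in model against control rats and at 0, 1 and 1 in BHD against model rats, and moved as follows, with the share of all probes called in that setting in parentheses, where the cause was not tested unless the setting itself gives it. With the scanner software's processed signals they were 3 (5.08%), 3 (4.42%) and 4 (5.54%) for model and control, and 0 (10.5%), 5 (13.4%) and 3 (8.43%) for BHD and model. Without normalization within arrays the ratio counts were 2 (3.32%) and 2 (6.58%). With loess only, IP gave 1 (3.07%) in model against control. With the slide as a block, 4 (7.63%) were called in the ratio and 2 (5.92%) in IP for BHD, and in Sup 0 (0.651%) for model and 0 (1.40%) for BHD. With the other set of arrays in the fit, IP gave 2 (4.97%) for BHD, and with outlier spots kept Sup gave 2 (2.59%). At an adjusted p under 0.05, 0 were called in IP for BHD (0.00305%) and 0 in Sup for model (0%) and BHD (0.00609%). With the replicate number as a block, IP counts were 1 (2.02%) in model against control, Ndfip2 at −0.67, and 2 (5.77%) in BHD against model, Slc28a2 and Ndfip2, and the ratio and Sup counts stayed at 0 (2.55%) and 1 (1.57%) for model and at 0 (4.03%) and 1 (3.01%) for BHD. Leaving out each array in turn gave 0 to 6 in the ratio, 0 to 2 in IP and 1 to 2 in Sup for model against control, where the extremes came without model replicate 1 (6 in the ratio, 5.51% of all probes, and 2 in Sup, 2.11%) and control replicate 3 (2 in IP, Ptk2b and Ndfip2, 3.53%, and 2 in Sup, Ptk2b and Slc28a2, 2.67%). For BHD against model it gave 0 to 3 in the ratio (3 without model replicate 1, 6.56%), 1 to 3 in IP (3 without BHD replicate 2, 7.37%) and 0 to 2 in Sup (0 without model replicate 1, 1.98%, or BHD replicate 3, 1.42%, and 2 without model replicate 2, 2.40%). BHD minus model in log2(IP/Sup) turned sign for Slc28a2 (0.00) to −0.16 with processed signals and to −0.16 with median centring, and lay between −0.25 and 0.22 when single arrays were dropped. Without normalization within arrays it turned to 0.053 for Pop7, 0.065 for Ndfip1, 0.0073 for A_44_P251706 and 0.052 for A_44_P913360. In IP it turned with loess only to −0.028 for Napepld and −0.081 for A_44_P895660. The median spot SD was 0.0855 with outlier spots kept. The alternative on the deposited log2 table was not run, since it held 0 members. Dim members, with offset 50 and signals near background, limit what a fold can show.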
